A study of Homo sapiens with 6 samples.

Results

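The 14-3-3 proteins are a family of 7 small adaptor proteins in human cells, encoded by YWHAB (beta), YWHAE (epsilon), YWHAG (gamma), YWHAH (eta), YWHAQ (theta), YWHAZ (zeta) and SFN (sigma). On the Affymetrix Human Genome U133 Plus 2.0 array, 20 of the 54613 probe sets tested were annotated to exactly 1 of these symbols, and the 7 genes stand among 19775 genes that have such a probe set. YWHAZ was read by 5 probe sets, YWHAB, YWHAH, YWHAQ and SFN by 3 each, YWHAE by 2 and YWHAG by 1. The family was chosen by earlier values of these same arrays, in which the difference between POSTN and control on YWHAZ had been seen. POSTN against control is therefore given for the members as a description, and the counts past a threshold, printed beside the share of all probe sets past it, support nothing about the members.

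All 6 samples were MHCC97H cells, an established human hepatocellular carcinoma (HCC) line, that had survived heating at 47 °C. They were cultured for 24 h without recombinant POSTN (control, 0 ng/mL, 3 samples) or with 100 ng/mL of it (POSTN, 3 samples). POSTN (periostin) is a matrix protein secreted by activated hepatic stellate cells, and the comparison asks which transcripts differ when residual HCC cells receive it. The study thus covers 1 cell line, with no unheated sample. Neither the labels nor the methods say whether the 3 samples of a condition were separate cultures. A p-value here therefore only sets a difference against the spread between these samples, which limma adjusts by a variance trend over all probe sets. That spread need not be the one between separate cultures.

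A 14-3-3 protein works as a dimer whose grooves hold phosphorylated serine or threonine sites of other proteins. By holding them it keeps RAF kinases, the death promoter BAD, CDC25 phosphatases, FOXO factors and the Hippo effectors YAP1 and WWTR1 in an inactive or cytoplasmic state. SFN differs from the other genes in being an epithelial gene and a target of p53, while the other 6 are used by most cells, and YWHAZ is often raised in HCC.

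Promoters of 6 of the 7 genes were found in the RefSeq table of promoters (GRCh38.p14, 250 bases before the start of the gene to 50 after it). No promoter of YWHAZ was found there. The promoters of YWHAB, SFN and YWHAQ are shown, because the signals of YWHAB and SFN went up and down together over the 6 arrays while those of YWHAQ went the opposite way. Capitals mark the letters GGGCGG (the GC box) and CCAAT (the CCAAT box) on either strand. These motifs were picked after the sequences had been read. The windows are chr20:44885455-44885754 on the plus strand for YWHAB, chr1:26862899-26863198 on the plus strand for SFN and chr2:9630948-9631247 on the minus strand for YWHAQ, each written 5′ to 3′ in the direction of the gene.
YWHAB: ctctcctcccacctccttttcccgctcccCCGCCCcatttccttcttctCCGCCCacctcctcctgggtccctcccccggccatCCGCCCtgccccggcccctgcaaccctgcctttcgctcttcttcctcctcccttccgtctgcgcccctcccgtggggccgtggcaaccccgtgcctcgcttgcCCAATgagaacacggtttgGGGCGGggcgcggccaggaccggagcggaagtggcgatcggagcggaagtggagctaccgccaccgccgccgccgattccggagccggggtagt
SFN: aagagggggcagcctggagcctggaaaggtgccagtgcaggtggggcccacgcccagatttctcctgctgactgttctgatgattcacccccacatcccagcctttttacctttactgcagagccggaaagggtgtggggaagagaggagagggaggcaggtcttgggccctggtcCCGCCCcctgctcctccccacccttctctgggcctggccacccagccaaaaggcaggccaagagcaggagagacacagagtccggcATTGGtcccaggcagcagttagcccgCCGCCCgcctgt
YWHAQ: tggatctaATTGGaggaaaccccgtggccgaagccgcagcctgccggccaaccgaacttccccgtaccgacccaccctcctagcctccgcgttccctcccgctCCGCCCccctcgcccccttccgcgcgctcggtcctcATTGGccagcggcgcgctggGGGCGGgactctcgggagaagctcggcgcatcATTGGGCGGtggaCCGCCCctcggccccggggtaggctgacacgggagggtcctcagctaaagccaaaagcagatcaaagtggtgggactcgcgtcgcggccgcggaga

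All 6 promoters held at least 1 GC box, which 44.95% of the 35116 promoters in the table also held. The CCAAT box was found in these 3 promoters and in none of those of YWHAE, YWHAG and YWHAH, against 34.61% of all promoters. That of YWHAZ could not be searched. In YWHAQ, 1 of the 3 CCAAT boxes overlaps a GC box. YWHAH was the only member with the cAMP response element TGACGTCA, present in 1.85% of all promoters. YWHAG was the only member with the 7 letters CCGGAAG, 1 form of an ETS site, present in 10.3%. Other forms of ETS site were not searched, so the other members may hold them. The share of G and C letters was 63.7% in SFN and up to 73.7% in YWHAH, against a median of 58.7%. A match is a run of letters and no measured binding site.

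The values are log2 of MAS 5.0 signals, which the authors scaled per array. A background level of 5.98 was taken as the 95th percentile of 107 probe sets of olfactory receptor genes, and 47.7% to 49.7% of the probe sets of an array lay above it. Of 9 hepatocyte and HCC markers measured, 7 lay above that level, with KRT8 and KRT18 well above, AFP at a mean of 8.996, TF at 8.38, ALB at 6.55, and TTR and APOB at 6.38 and 6.02, while the means of APOA1 and SERPINA1 did not. Summed on the linear scale, they came to between 50380 and 54950 in control and between 47010 and 50650 with POSTN. Most of each sum came from KRT18 and KRT8, at 32560 and 16148 on control array 1, and little from the other markers. Of 6 stellate cell markers the mean of 1 was above background (COL1A1), with a summed signal of 417 to 579 in control and 444 to 621 in POSTN. PDGFRB, LRAT and COL1A2 lay under it on every array, ACTA2 lay over it on 4 of the 6, and COL3A1 read 6.37 to 6.57 on the arrays numbered 2 and 3 but 2.49 and 5.60 on those numbered 1. Of 3 leukocyte markers 1 was just above it (CD3E, 6.19), PTPRC was at 3.80, and the summed signals were 112 to 150 and 92.9 to 165. The arrays numbered 1 in the labels stood apart in both conditions. TF, the iron carrier transferrin, read 10.22 and 10.32 there and 7.35 to 7.47 on the 4 others. The liver secretory genes ALB and SERPINA1 were also higher there, ALB at 7.75 and 7.83 against 5.65 to 6.13, and SERPINA1 at 7.79 and 7.82, over background, against 4.14 to 5.85, under it. All 3 passed the test by number described below (limma adjusted p = 7.6e-06 for TF, 0.022 for ALB and 0.019 for SERPINA1). Other secretory markers did not all go this way. The means of TTR and APOB were lowest in number 1, at 6.08 and 5.59, against 6.30 to 6.75 and 6.17 to 6.31 in the other numbers. Those of AFP were 9.07, 8.99 and 8.92 in numbers 1, 2 and 3, and APOA1 was highest in number 1 but under background. TTR, APOB, AFP and APOA1 did not pass that test (limma adjusted p of 0.50 to 0.84). Since the arrays numbered 1 stood apart, values without both of them, an alternative chosen after seeing the data, are given beside the members' results.

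The 14-3-3 genes gave bright signals in residual HCC cells. All 7 genes had at least 1 probe set above background, as did 18 of the 20 probe sets, and 13 probe sets read over 13 on every array. The 2 exceptions were probe sets of YWHAH. The members varied little. Over the 6 arrays their median SD was 0.10, against 0.21 for all probe sets above background, and the median SE of the difference between conditions was 0.094 against 0.18. The comparison was not matched for signal level. The bright probe sets of KRT8 and KRT18 had SDs of 0.095 and 0.10, so a low SD is not particular to the family.

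With POSTN, 15 of the 18 probe sets above background were lower and 3 higher, and their median log2 difference was -0.05, against 0.00038 for all probe sets above background, of which 49.9% were lower. Several of these probe sets read the same gene. By the brightest probe set of each gene, YWHAZ, YWHAB, YWHAQ and SFN were lower and YWHAE, YWHAG and YWHAH higher. The count of lower probe sets was 14 without both arrays numbered 1, 12 after quantile normalization and 9 without POSTN replicate 1. By limma with Benjamini-Hochberg adjustment, 0 of the 20 members passed an adjusted p of 0.05, where 0% of all 54613 probe sets passed. At an unadjusted p under 0.05, limma gave 2 members (YWHAZ 200639_s_at and YWHAH 242325_at), with 3.02% of all probe sets called. The methods' t-test gave the same pair and SFN 33323_r_at, with 3.62% of all called, and 0 after adjustment. With the methods' fold change over 2 or under 0.5 added, 1 member was left (YWHAH 242325_at), with 2.09% of all called. The same 3 probe sets were the ones whose conditions did not overlap, as did not 7.94% of all probe sets. Since this contrast was known when the family was chosen, nothing is read from these counts.

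**Figure D1:**
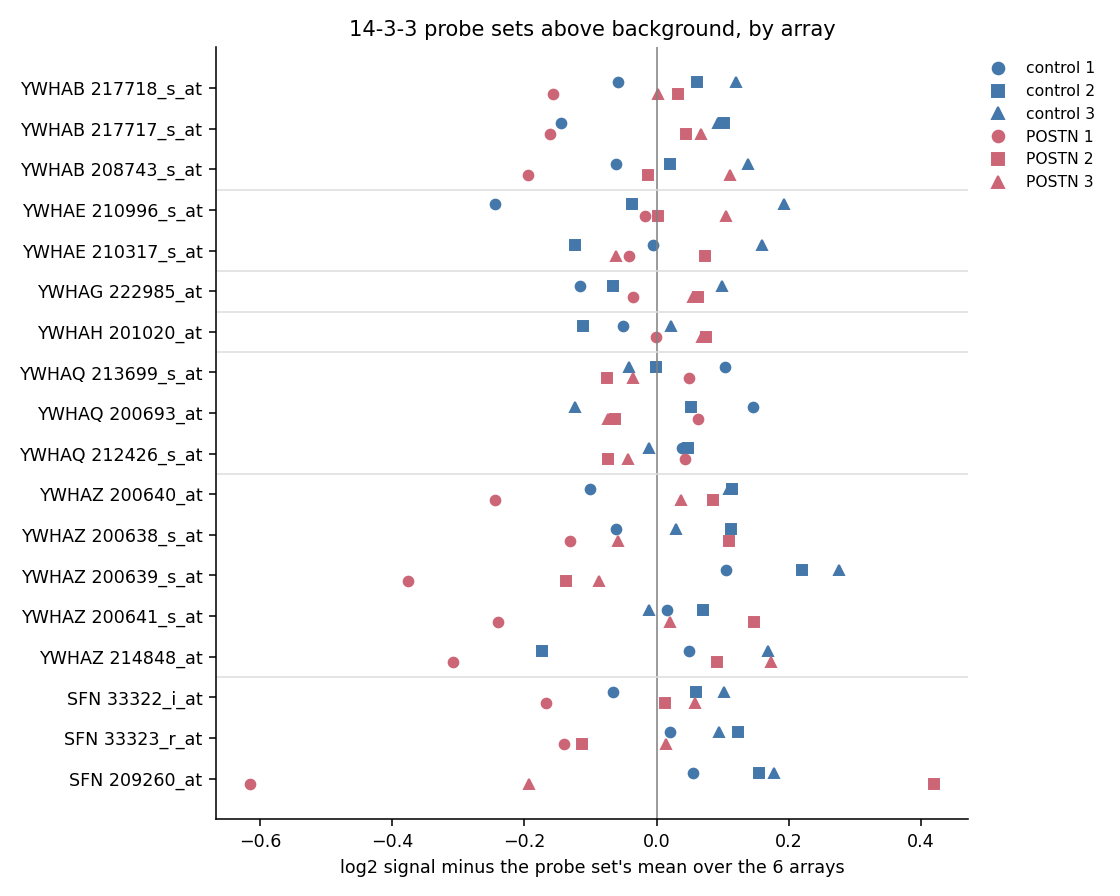
The log2 signal of each of the 18 member probe sets above background on each array, minus the probe set's mean over the 6 arrays. Colour gives the condition and shape the replicate number, and 1 probe set of YWHAZ, 200639_s_at, has all control arrays to the right of all POSTN arrays by a margin wider than that of SFN 33323_r_at.

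YWHAZ encodes the zeta protein, the member that the study places in its POSTN network. Its probe set 200639_s_at read 14.67, 14.78 and 14.84 on control arrays 1, 2 and 3, and 14.19, 14.43 and 14.47 on POSTN arrays 1, 2 and 3. Every POSTN array was below every control array. The log2 difference was -0.40 (SE 0.096, n = 3 per condition, 95% interval -0.61 to -0.19), a fold change of 0.758. Between arrays of the same number it was -0.48, -0.36 and -0.36, and without both arrays numbered 1 it was -0.36.

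The other YWHAZ probe sets did not show this gap. The brightest, 200640_at, read 14.77, 14.98 and 14.98 in control and 14.62, 14.95 and 14.90 with POSTN, so that the conditions overlapped. Its log2 difference was -0.08 (SE 0.11, 95% interval -0.32 to 0.15), and it was 0.02 without POSTN replicate 1. Probe set 200638_s_at read 14.72, 14.89 and 14.81 in control and 14.65, 14.89 and 14.72 with POSTN, a log2 difference of -0.05 (SE 0.090). POSTN array 1 was the lowest of the 6 here too. Probe set 200641_s_at read 14.58, 14.63 and 14.55 against 14.32, 14.71 and 14.58, a log2 difference of -0.05 (SE 0.10). Here POSTN array 2 was the highest of all and POSTN array 1 the lowest. The dimmest, 214848_at, ranged from 7.72 to 8.20 with a log2 difference of -0.03 (SE 0.20).

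The probe sets of YWHAZ can be set against each other on the same array, where a factor common to the whole array cancels in the difference. An effect that differs between probe sets or signal levels would not cancel. These values are a description only, since the contrast on YWHAZ was known when the family was chosen. The log2 signal of 200639_s_at minus that of 200640_at was -0.10, -0.20 and -0.14 on the control arrays, and -0.44, -0.53 and -0.43 on the POSTN arrays. The mean difference was -0.15 ± 0.050 (SD, n = 3) in control and -0.46 ± 0.055 (SD, n = 3) with POSTN, and the conditions were -0.32 apart. The same within-array value moved by 0.03 for 200638_s_at, 0.03 for 200641_s_at and 0.05 for 214848_at. The annotation gives 200639_s_at and 200640_at the same transcript record, and a name ending in _s_at marks probes that can match more than 1 transcript. Which transcripts each probe set reads was not tested.

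**Figure D2:**
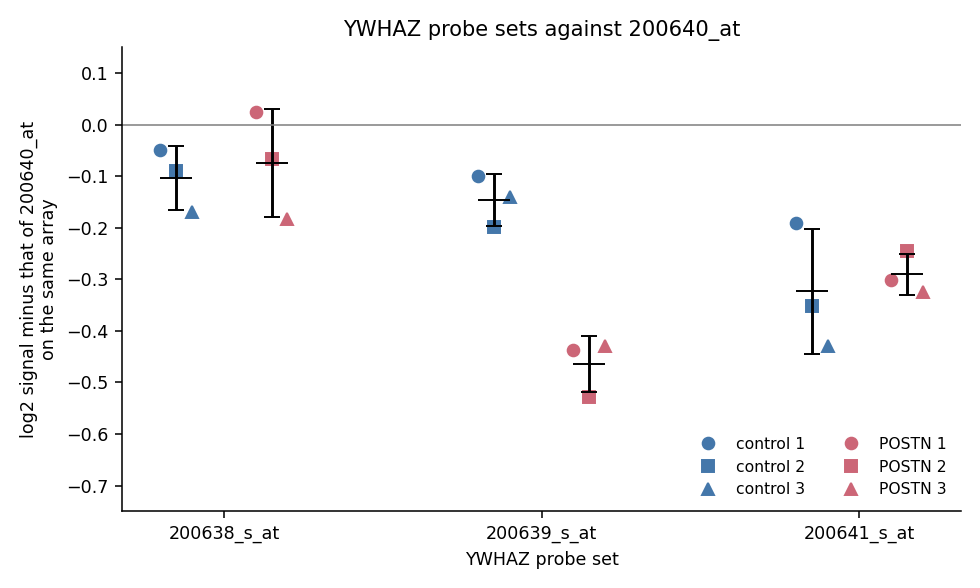
The log2 signal of YWHAZ probe sets minus that of YWHAZ 200640_at on the same array, by condition, with 1 point per array, and the mean of the condition as a line with its SD as bars (n = 3). Probe set 214848_at is off the scale and left out. For 200639_s_at the control arrays sit between -0.20 and -0.10 and the POSTN arrays between -0.53 and -0.43, while in the other 2 probe sets the conditions overlap.

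The span between the log2 differences of bright probe sets of 1 gene can be set beside that of other genes, as a description only, since the span of YWHAZ comes from 200639_s_at and thus from the contrast that chose the family. Among probe sets with a mean log2 signal of at least 10, the log2 differences of YWHAZ probe sets spanned 0.35. Those of SFN spanned 0.094, those of YWHAB 0.048 and those of YWHAQ 0.0089. Over the 1526 genes with several such probe sets the median span was 0.083, and 1.18% of them had a span as large as that of YWHAZ. A span can grow with the number of probe sets of a gene, for which the genes were not matched.

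**Figure D3:**
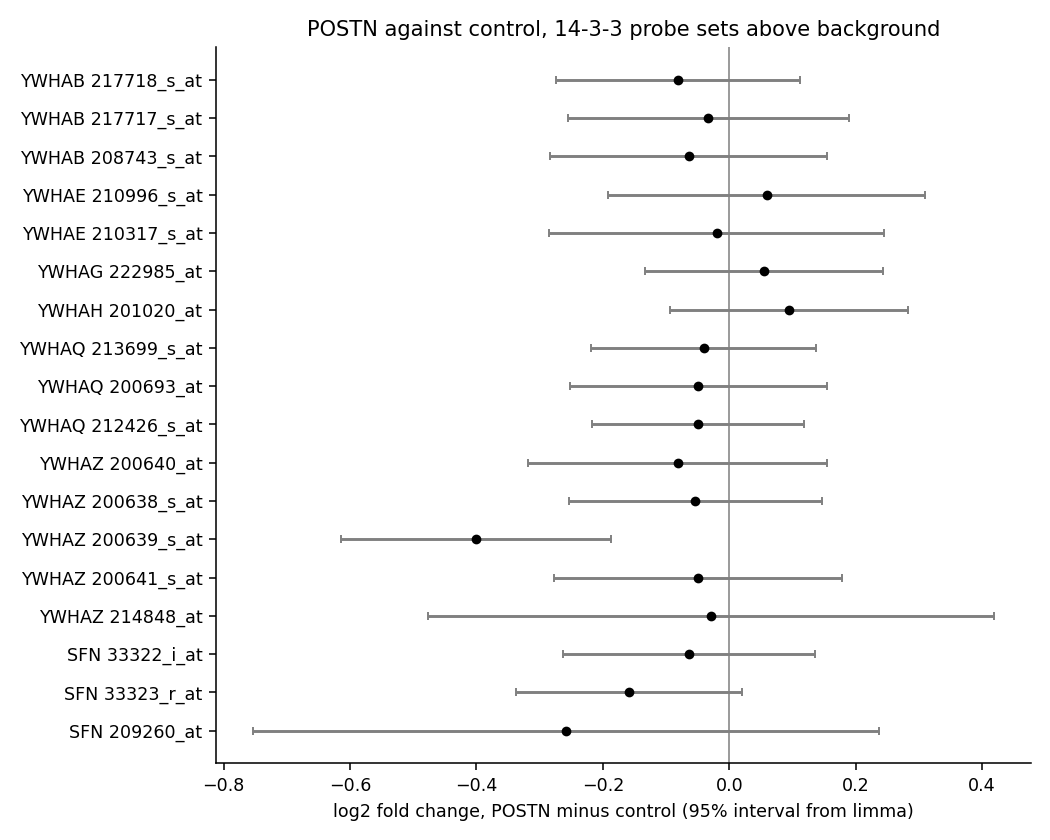
The log2 difference, POSTN minus control, of the 18 member probe sets above background with its 95% interval from limma without the replicate number in the fit (n = 3 per condition). The interval of YWHAZ 200639_s_at (-0.61 to -0.19) lies below 0, and those of the others include 0, although in the fit blocked on number that of SFN 33323_r_at (-0.27 to -0.05) does not.

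YWHAB encodes the beta protein, a close relative of zeta that binds RAF kinases. Its brightest probe set, 217718_s_at, read 14.53, 14.65 and 14.71 in control and 14.44, 14.62 and 14.60 with POSTN. The array numbered 1 was the lowest of its condition in both, and the conditions overlapped. The log2 difference was -0.08 (SE 0.086). Probe set 217717_s_at read 13.37, 13.62 and 13.61 against 13.36, 13.56 and 13.59 (log2 difference -0.03, SE 0.0995), and 208743_s_at read 13.39, 13.47 and 13.59 against 13.25, 13.44 and 13.56 (log2 difference -0.06, SE 0.099). In the fit blocked on number the SEs were 0.046, 0.048 and 0.050, and all 9 differences between arrays of the same number were below 0. The 3 probe sets followed each other over the 6 arrays, with Pearson's r from 0.85 to 0.90.

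SFN encodes the sigma protein, which p53 induces and which holds cells in G2 after DNA damage. Its brightest probe set, 33322_i_at, read 13.87, 13.999 and 14.04 in control and 13.77, 13.95 and 13.997 with POSTN, a log2 difference of -0.06 (SE 0.089). The conditions overlapped. Probe set 33323_r_at read 13.80, 13.90 and 13.87 against 13.64, 13.67 and 13.79, and here no POSTN array reached a control array, although the lowest control and highest POSTN arrays nearly met. The log2 difference was -0.16 (SE 0.080, 95% interval -0.34 to 0.02), and it was the same to 2 decimals without both arrays numbered 1. With the number as a block the 95% interval was -0.27 to -0.05. Probe set 209260_at read 9.47, 9.57 and 9.59 in control and 8.80, 9.84 and 9.22 with POSTN. The 3 POSTN arrays were farther apart than in any other member above background, and the log2 difference of -0.26 (SE 0.22) came to -0.02 without POSTN replicate 1 and -0.53 without POSTN replicate 2. The 3 SFN probe sets followed each other less closely than those of YWHAB, with r from 0.38 to 0.72.

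YWHAE encodes the epsilon protein, a partner in mixed dimers and a known binder of CDC25 phosphatases. Probe set 210996_s_at read 12.13, 12.34 and 12.57 in control and 12.36, 12.38 and 12.48 with POSTN, a log2 difference of 0.06 (SE 0.11). It was -0.02 without both arrays numbered 1. Probe set 210317_s_at read 9.81, 9.70 and 9.98 against 9.78, 9.89 and 9.76, a log2 difference of -0.02 (SE 0.12). The 2 probe sets had a correlation of 0.42 over the 6 arrays. YWHAE 210996_s_at had the largest SD among the brightest probe sets of the 7 genes. Among the 11543 brightest probe sets of genes above background, those most like it over the 6 arrays were of LAMP1 (r = 0.99), WDR5 (r = 0.99) and TRIM13 (r = 0.99), and 95 had an r over 0.9. With 6 arrays that fall into 2 conditions and 3 numbers, this is a description only.

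YWHAG encodes the gamma protein, which many cells use beside epsilon. Its only probe set, 222985_at, read 14.10, 14.15 and 14.32 in control and 14.18, 14.28 and 14.27 with POSTN. The POSTN arrays lay inside the range of the control arrays. The log2 difference was 0.05 (SE 0.085).

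YWHAQ encodes the theta protein, first known from T cells and brain. Its probe set 213699_s_at read 14.15, 14.04 and 14.002 in control and 14.09, 13.97 and 14.01 with POSTN. Probe set 200693_at read 14.17, 14.08 and 13.90 against 14.09, 13.96 and 13.95, and 212426_s_at read 14.01, 14.02 and 13.96 against 14.01, 13.89 and 13.92. In the first pair of probe sets the array numbered 1 was the highest of each condition, the reverse of YWHAB and of the brightest YWHAZ probe set, 200640_at. The log2 differences between conditions were -0.04 (SE 0.080), -0.05 (SE 0.091) and -0.05 (SE 0.076). YWHAQ was the gene whose probe sets gave the closest differences, and their r was 0.76 to 0.91.

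YWHAH encodes the eta protein. Its brightest probe set, 201020_at, read 11.71, 11.65 and 11.78 in control and 11.76, 11.84 and 11.83 with POSTN. The conditions overlapped, with POSTN array 1 below control array 3. The log2 difference was 0.09 (SE 0.084, 95% interval -0.09 to 0.28), the highest among members above background.

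The other YWHAH probe sets were dim. Probe set 242325_at read 5.20, 5.12 and 4.97 in control and 6.14, 6.18 and 6.09 with POSTN. All control arrays were under the background level and all POSTN arrays just over it. Since control was not above background, only a bound can be given, and against the background level the POSTN signal was at least 1.12-fold higher. The fitted log2 difference was 1.04 (SE 0.44, 95% interval 0.05 to 2.02, and -0.06 to 2.13 with the number as a block). It was 1.09 without both arrays numbered 1 and 0.51 with 50 added to each signal. Its 3 arrays of a condition were unusually close for so dim a probe set. The SD within a condition was 0.089, against a median of 0.61 for the 6250 probe sets within 0.5 of its mean, of which 0.16% had an SD that low. The third YWHAH probe set, 236559_at, ranged from 2.05 to 5.06, all under background, with a log2 difference of 0.62 (SE 0.93).

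**Figure D4:**
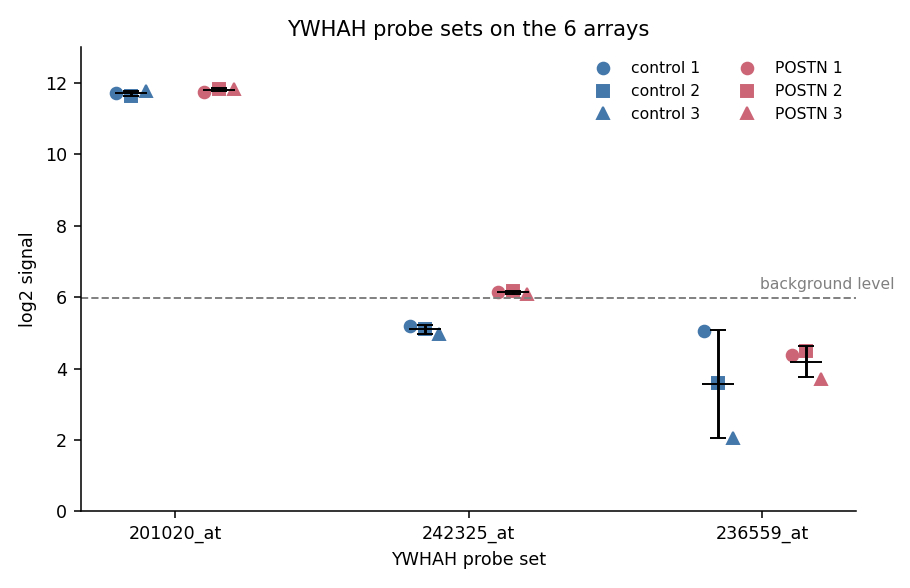
Log2 signals of the 3 YWHAH probe sets on each array, control and POSTN, with the mean of the condition and its SD as bars (n = 3) and the background level of 5.98 as a dashed line. Probe set 201020_at lies far above the line in both conditions, 242325_at lies at 4.97 to 5.20 in control and 6.09 to 6.18 with POSTN, and 236559_at stays under the line.

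The labels number the arrays 1 to 3 in both conditions, so the members can also be compared by number, with the condition in the fit. Number 1 had the lowest mean in 14 of the 18 probe sets above background and the highest in 3, all 3 of them YWHAQ. Among all probe sets above background, 38.1% were lowest and 41.5% highest in number 1. Both arrays numbered 1 lay below the 4 others in 6 member probe sets (18.6% of all) and above them in 2 (21.2% of all).

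The limma F test of the number, adjusted over all 54613 probe sets, called 1 of the 18 members above background, YWHAZ 200640_at (adjusted p = 0.030). That is 5.56% of the members, against 8.67% of all probe sets above background and 4.08% of all probe sets. Its mean was 14.69 in number 1, 14.97 in number 2 and 14.94 in number 3, and the log2 difference of number 1 was -0.27 from number 2 and -0.25 from number 3. The call was lost by limma after quantile normalization (adjusted p = 0.29), without POSTN replicate 1 (adjusted p = 0.18), without control replicate 3 and without POSTN replicate 3 (adjusted p = 0.11 in both). Over all alternatives its limma adjusted p ran from 0.0032 without control replicate 2 to 0.97 without both arrays numbered 1. At an unadjusted p under 0.05, 11 of the 18 members (61.1%) were called, against 28.2% of all probe sets above background. These 11 include several probe sets of the same gene. The shares were not matched for signal level, so nothing about the family is read from them. TF, ALB and SERPINA1 moved with the number in the values given above, and their part in these differences was not tested. What set the arrays numbered 1 apart was not tested either.

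The brightest probe sets of the genes fell into patterns over the 6 arrays. SFN, YWHAB and YWHAZ followed each other, with r of 0.96 in each pair. YWHAE followed YWHAG (r = 0.90), and YWHAG followed YWHAH (r = 0.79). YWHAQ ran against all the others, with r from -0.88 (YWHAG) to -0.60 (YWHAH). The 6 arrays share conditions, numbers and scaling, and no test was made of these values.

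**Figure D5:**
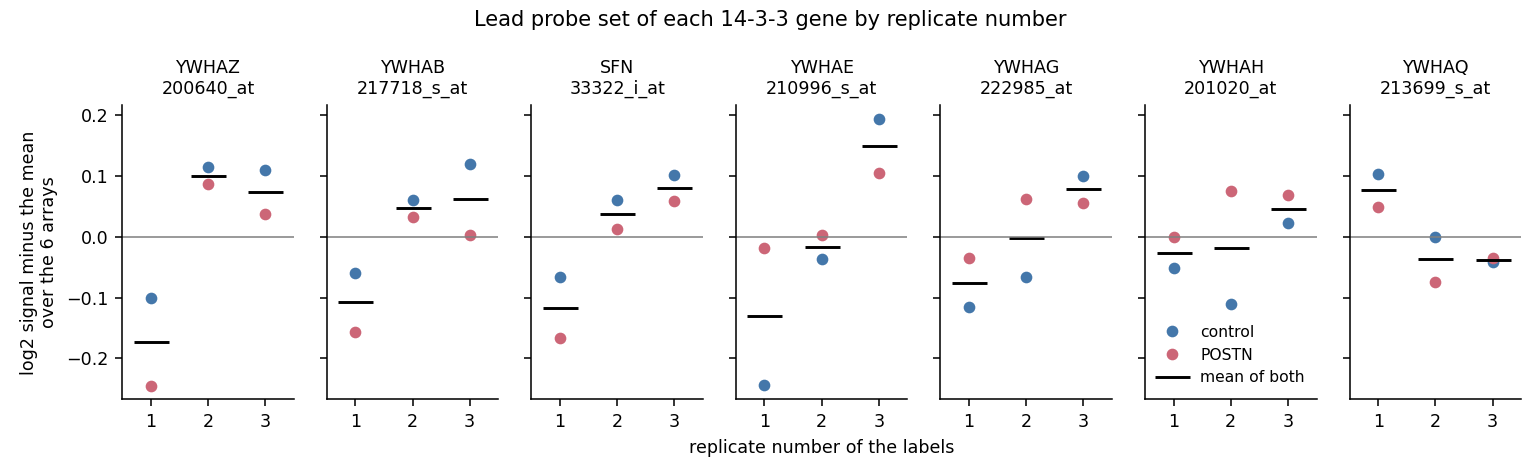
The log2 signal of the brightest probe set of each gene minus its mean over the 6 arrays, by replicate number, with control and POSTN as points and their mean as a line. YWHAZ, YWHAB and SFN are lowest in number 1 in both conditions, and YWHAQ is highest in number 1.

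The proteins that 14-3-3 holds, the kinases that write its binding sites and the p53 targets, to which SFN belongs, were followed by their brightest probe sets. Of 62 genes listed, 56 were measured and 52 lay above background. With POSTN 30 were higher and 26 lower, with a median log2 difference of 0.02 against 0.01 for all probe sets, and limma called 0 at an adjusted and 0 at an unadjusted p under 0.05 (3.02% of all probe sets at the latter). In the test of the number, 6 of the 52 above background (11.5%) were called, against 8.67% of all probe sets above background, so their share was near that of all probe sets.

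Among the RAF and MAPK clients, 4 of 6 were higher with POSTN and 2 lower (median 0.05). The largest values were 0.07 (SE 0.21) for SOS1, the exchange factor that loads RAS, and -0.06 (SE 0.23) for RIN1, a RAS effector. By number, limma called SOS1 (adjusted p = 0.0092), which was 0.67 lower on the log2 scale in number 1 than in number 2, and MAP3K5, the stress kinase ASK1 (adjusted p = 0.040), which was 1.09 higher in number 1 than in number 3. The call of MAP3K5 was lost by limma without control replicate 1, control replicate 3 or POSTN replicate 1 (adjusted p = 0.25, 0.077 and 0.086). Among the cell cycle and apoptosis clients, 2 of 8 were higher and 6 lower (median -0.05). CDC25A had a log2 difference of 0.08 (SE 0.26) and CDC25C one of -0.15 (SE 0.16), both phosphatases that drive the cell cycle. None of the 8 was called by number.

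Among the transcription regulators, 4 of 11 were higher and 7 lower (median -0.04). FOXO1, which 14-3-3 keeps in the cytoplasm after AKT phosphorylates it, read 7.99, 7.51 and 7.61 in control and 8.16, 8.26 and 7.95 with POSTN. Its conditions met in 1 array each, and the log2 difference of 0.42 (SE 0.20, 95% interval -0.03 to 0.88) was the largest of all the named list genes. CRTC2, a coactivator of CREB, had one of -0.15 (SE 0.16). WWTR1 (TAZ) was called by number (limma adjusted p = 0.0017) and was lower in number 1 by log2 differences of -0.56 and -0.47 from numbers 2 and 3.

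Of the metabolism, mTOR and cytoskeleton clients, 8 of 11 were higher and 3 lower (median 0.03), with AKT1S1 (PRAS40) at 0.19 (SE 0.19) and TBC1D4 (AS160, which controls glucose transporter traffic) at -0.31 (SE 0.27). The kinases gave 8 higher and 3 lower of 11 (median 0.04), with AKT1 at 0.18 (SE 0.13) and PRKACA, a catalytic subunit of protein kinase A, at -0.10 (SE 0.16). The Hippo kinase LATS2 was called by number (limma adjusted p = 0.042), at log2 differences of -0.32 and -0.62 of number 1 from numbers 2 and 3. That call was lost without control replicate 1 or 3 or POSTN replicate 1 or 3 (limma adjusted p of 0.10 to 0.20).

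The p53 targets gave 4 higher and 5 lower with POSTN of 9 (median -0.0049), with SESN1 at 0.14 (SE 0.22) and ZMAT3 at -0.12 (SE 0.15). Both GADD45A and CDKN1A differed by number. GADD45A, a growth arrest gene, read 11.002, 11.99 and 12.18 on control arrays 1, 2 and 3 and 10.75, 11.86 and 12.26 on the POSTN arrays (limma adjusted p = 3.0e-05). CDKN1A, which encodes the cell cycle inhibitor p21, read 8.998, 10.29 and 10.26 in control and 9.44, 10.25 and 10.24 with POSTN (limma adjusted p = 0.0012). In both genes the arrays numbered 1 were the lowest in each condition, as they were for SFN 33322_i_at, whose own test by number gave a limma adjusted p of 0.16. The rest of the list did not share this. The means of TP53I3, BAX, SESN1 and FAS (the last under background) were highest in number 1, with TP53I3 at 9.86, 9.44 and 9.36 by number. Those of MDM2, ZMAT3 and RRM2B in number 1 lay between those of the other numbers. A link between SFN and the p53 targets was not tested.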

How the data were processed

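Biotin-labelled cRNA from 6 samples was hybridized to 1 array each. The authors summarised the probes with MAS 5.0 and the affy package in R (versions not given in the sources used here), and the deposited values are log2 signals. The mean linear signal of each array, without the highest and lowest 2%, is 500, so each array was scaled to 1 total. All values were used as deposited, and the number of arrays limits the precision. No column was left unused. Of the 54613 probe sets left after 62 Affymetrix controls, 41091 had 1 symbol in the platform annotation, 1801 several and 11721 none.

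The fits of POSTN against control used limma 3.58.1 in R 4.3.3 (lmFit, eBayes with a mean-variance trend) over all probe sets, with Benjamini-Hochberg adjustment. The replicate number was tested with an F test in a fit with condition and number. The methods' t-test was taken as unpaired with equal variances. The scripts were tested on simulated data. The members and gene lists were chosen with earlier results of these data known. The genes named are all members, and, on the brightest probe set of each list gene, the largest rise and fall with both conditions above background and those that passed the test by number, up to 3 a list. The 3 probe sets most like the most variable brightest member probe set were also named. Genes of the lists with no probe set used here were not analysed here.

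As a check of pairing, each array's deviation from the mean of its condition was correlated with that of the array bearing its number in the other condition. Above background r was 0.529, 0.235 and 0.239 for numbers 1, 2 and 3, all over 0.1, so there the numbers meet the rule for pairing. Over all probe sets r was 0.088, 0.034 and 0.025, none over 0.1. Over the members above background it was 0.349, 0.087 and 0.482. Above background r was also over 0.1 for control 2 with POSTN 3 (0.202) and control 3 with POSTN 2 (0.150). Between number 1 and the other numbers it was -0.358 to -0.304. The values thus set number 1 apart and give little ground for pairing 2 with 2 and 3 with 3. The SEs and intervals printed are from the fit without the number, as in the study's unpaired design, and values with the block are given where they differ in call. This comes from the data, as neither the labels nor the methods state a pairing. The alternatives were quantile normalization, median centring, log2(value + 50), a filter at the background level, no mean-variance trend, leaving out probe sets with _x_at or _s_at names, the replicate block, the methods' t-test and leaving out each array. Promoter sequences are RefSeq's (GRCh38.p14).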

Additional observations from a re-analysis of the deposited data

How the results depend on the processing

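POSTN against control gave 0 probe sets at an adjusted p under 0.05 in every setting run, the replicate block and the methods' t-test included. With the replicate block no adjusted call changed. At an unadjusted p under 0.05 the block left the count of members at 2 but changed which: SFN 33323_r_at was gained and YWHAH 242325_at was lost. The difference of YWHAZ 200639_s_at was -0.40 with the block and ranged from -0.46 to -0.31 over all settings. Of the other differences between conditions, those of YWHAH 242325_at (0.51 with 50 added to the signals) and YWHAQ 212426_s_at (-0.10 after centring) moved by more than the spread between replicates. The count of members lower with POSTN was 6 of 8 once _x_at and _s_at names were left out, so that fewer were tested, and 9 to 15 when 1 array was left out, the lowest without POSTN replicate 1. The test by number called 2230 of all probe sets, 1345 with 50 added, 1251 without _x_at and _s_at probe sets, 0 without the variance trend, 5 without both arrays numbered 1, and 1121 (without POSTN replicate 1) to 4454 (without POSTN replicate 2) with 1 array left out. It called 1276 without control replicate 1 and 4019 without control replicate 2. Among members above background it called 1, and 0 after quantile normalization, after centring, with 50 added, without the trend and without both arrays numbered 1. It called 4 with only probe sets above background tested, those added being YWHAZ 200639_s_at and YWHAB 217717_s_at and 208743_s_at. With 1 array left out it called 0 to 7, with 7 without control replicate 2, 5 without POSTN replicate 2, 2 without control replicate 1, and 0 without control replicate 3, POSTN replicate 1 or POSTN replicate 3. The calls by number of the 6 list genes were all lost without the variance trend and without both arrays numbered 1. The cause of these changes was not tested. With 3 arrays a condition, an exact permutation test of 1 value cannot give a p under 0.1.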

Other observations

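Transcripts that carry a 14-3-3 name without being members of the family were dim. YWHAH-AS1, the antisense transcript of YWHAH (207701_at), had log2 signals of 6.58, 3.78 and 6.002 in control and 5.93, 5.63 and 5.94 with POSTN, around the background level of 5.98. The YWHAE pseudogene YWHAEP7 was read by 1563945_at, at 4.57 to 6.71, and by 240979_at. The latter read 3.22, 3.89 and 2.24 in control and 5.16, 5.30 and 5.01 with POSTN, so that the conditions did not overlap while all 6 arrays lay under the background level. Its log2 difference was 2.04 (SE 0.77), with an adjusted p of 0.9999 from limma.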
